A study of Mus musculus with 6 samples.

Results

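Imprinted genes are transcribed mainly from the allele inherited from one parent, because DNA methylation placed on a control region in the egg or the sperm is kept through early development. Many lie in clusters in which one imprinted control region governs growth factors, growth inhibitors, transporters and long noncoding RNAs together. In embryonic stem cells these marks have to be copied at each division, and imprinted transcripts are known to vary between stem cell lines. The genes described here are a list of 52 imprinted mouse genes drawn up from general knowledge of imprinting, with earlier results of these data known. Of them, 50 had a named probe set among the 15351 genes that could be named on the arrays. *Begain* and *Rtl1* had none. The list spans 20 clusters or single loci. In the list, 22 of the measured genes are labelled as expressed from the maternal allele and 24 from the paternal allele. A further 4 are labelled as dependent on isoform or tissue. The labels come from general knowledge and may not hold in every tissue, and the allele expressed in these cells was not measured. The arrays do not separate alleles, so all values are sums over both copies of a gene.

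The study compared undifferentiated C57BL/6 mouse embryonic stem cells (mESCs) of the WT genotype with *Alkbh1-/-* mESCs, which lack the AlkB homolog *Alkbh1*. Each genotype was hybridised to 3 expression arrays at passage 8 and day 0. The lines came from littermate embryos of heterozygous matings and were kept with leukemia inhibitory factor on irradiated embryonic fibroblasts, which served as feeder cells. The arrays of a genotype carry one line name, so the array replicates may be technical, and line and genotype cannot be told apart. The arrays measured groups of short probes, called probe sets, whose brightness reflects the abundance of a transcript.

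The tables analysed here hold a mean log2 signal over all 6 arrays for 33142 probe sets and, for a subset, the mean of each genotype. They hold no value of a single array. No spread between replicates could be computed from them, the authors' own comparison statistics were not used, and no test was made. Below, a level is the authors' mean on the log2 scale, and a difference is the log2 of the *Alkbh1-/-* mean over the WT mean. A gene is represented by the brightest of its probe sets. The genotype means came from a list of probe sets that had passed a filter, not stated, and a nominal p under 0.05. A gene given with genotype means had therefore been picked for a difference. The smallest difference among the 4261 matched entries of that list was 0.37, or 1.29-fold. A gene absent from the list may have failed the filter or the p, and its difference is not analysed here.

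*Alkbh1*, the targeted gene, was lower in the *Alkbh1-/-* arrays. Its brightest probe set had a mean of 9.57 in WT and 4.69 in *Alkbh1-/-* mESCs, a difference of -4.89. Its other probe set went from 6.91 to 5.11. The labels and the targeted gene thus pointed the same way.

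The means of the imprinted genes ran from 3.83 for *Asb4* to 11.93 for *Cd81*. Those of all probe sets on the array ran from 3.22 to 14.67. Of the 50, 34 (68.0%) had a mean that reached the median of all probe sets on the array, 6.31, against 61.9% of all 15351 named genes taken by their brightest probe set, a choice that raises both shares. Above the upper quartile, 8.38, lay 21 imprinted genes (42.0%, against 35.4% of all genes), and below the lower quartile, 4.80, lay 12 (24.0%, against 18.2%). Over all 108 probe sets of imprinted genes, 60 reached the median. Because each probe set binds with its own strength, these positions describe the range of a probe set and do not order the genes by abundance.

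Among the noncoding RNAs, the maternally expressed *Meg3* had a mean of 11.10, its cluster neighbours *Rian* and *Mirg* had 9.66 and 7.52, and *H19* had 8.55. *Kcnq1ot1*, the paternally expressed RNA that starts within *Kcnq1* and runs antisense to it, had a mean of 7.99. *Airn*, which runs antisense to *Igf2r*, was below the lower quartile at 4.78, while *Igf2r*, the receptor that removes the growth factor IGF2, was above the upper quartile at 9.14. *Nespas*, antisense in the *Gnas* cluster, had a mean of 4.15. Its probe set carried the symbol *Nespas* but the gene identifier of *Gnas*, so its name is uncertain.

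Of the paternally expressed protein genes, *Peg3*, a zinc finger protein, had a mean of 11.53. *Snrpn*, a splicing protein gene, had 10.67, and *Ndn*, a growth suppressor of the same cluster, had 9.02. *Zdbf2* had a mean of 10.11 and *Impact*, a regulator of translation, had 10.06. Below the lower quartile were *Dlk1*, *Peg10*, *Usp29*, *Magel2*, *Rasgrf1* and *Peg12*, with means between 3.99 for *Usp29* and 4.67 for *Magel2*. Among the maternally expressed genes the tetraspanin gene *Cd81* had 11.93, the ubiquitin ligase gene *Ube3a* had 10.51 and *Commd1* had 10.43. *Zim1* at 3.94, *Asb4* at 3.83, *Kcnq1* at 4.20 and *Gatm* at 4.34 were below the lower quartile. *Copg2*, a coat protein gene, had a mean of 8.27, *Blcap* had 8.15 and *Klf14*, a transcription factor gene, had 5.23. Clusters were mixed in this respect. *Peg3* lay above the upper quartile and its neighbours *Zim1* and *Usp29* below the lower quartile, and *Meg3* and *Dlk1* were split in the same way. The other probe sets of *Meg3* ran from 10.68 down to 4.75, the last below the lower quartile. *Dlk1*, *Zim1* and *Usp29* had no other probe set, so the split depends in part on taking the brightest.

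**Figure D1:**
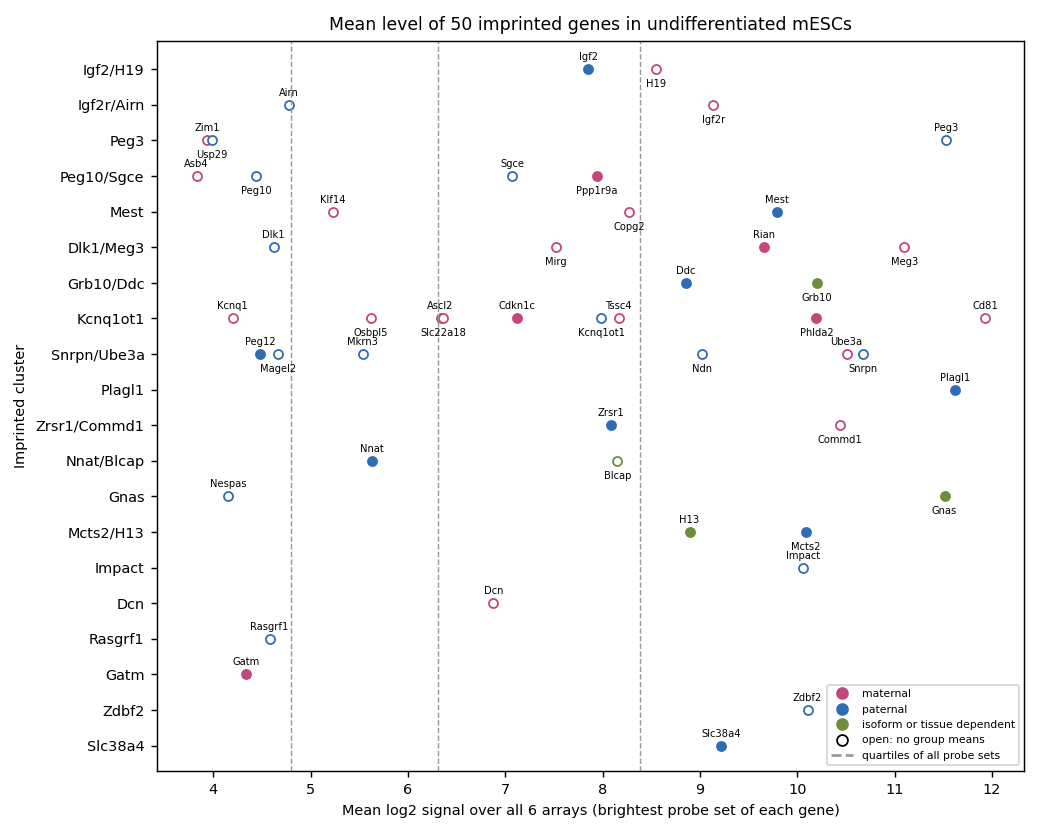
Mean log2 signal over all 6 arrays of the brightest probe set of each of 50 imprinted genes, by cluster. Colours mark the allele labelled as expressed, and filled points have genotype means. Dashed lines mark the quartiles of all probe sets (4.80, 6.31 and 8.38). The signals of different probe sets cannot be compared as abundance, and the plot shows 21 genes above the upper quartile and 12 below the lower quartile.

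Genotype means were listed for 17 of the 50 genes at their brightest probe set and for *Sgce* at a dimmer probe set alone. The mean was higher in *Alkbh1-/-* mESCs for 6 of the 17 genes and lower for 11, with a median difference of -0.54. Over the 2262 named genes with genotype means at their brightest probe set, 1072 were higher and 1190 lower, with a median of -0.44, and over the 4261 matched probe sets 2196 were higher and 2065 lower, with a median of 0.42. Since the list holds no differences near 0, the median takes the sign of the larger side. Past a linear fold of 1.5, 4 genes were higher and 7 were lower, and 6 did not reach it. Over all 4261 matched probe sets, 32.9% were higher past that fold and 30.3% were lower, and with genes picked through the same list the counts of imprinted genes are a description only. *Igf2*, at 1.55-fold, lay just inside the limit, and *Mest*, with a log2 difference of -0.58, just outside it. Of the 108 probe sets of imprinted genes, 22.2% were in the list, against 12.9% of all probe sets. By the brightest probe set the shares were 34.0% of imprinted genes and 14.7% of all genes. The imprinted genes were chosen with earlier results of these data known, so these shares are a description only.

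**Figure D2:**
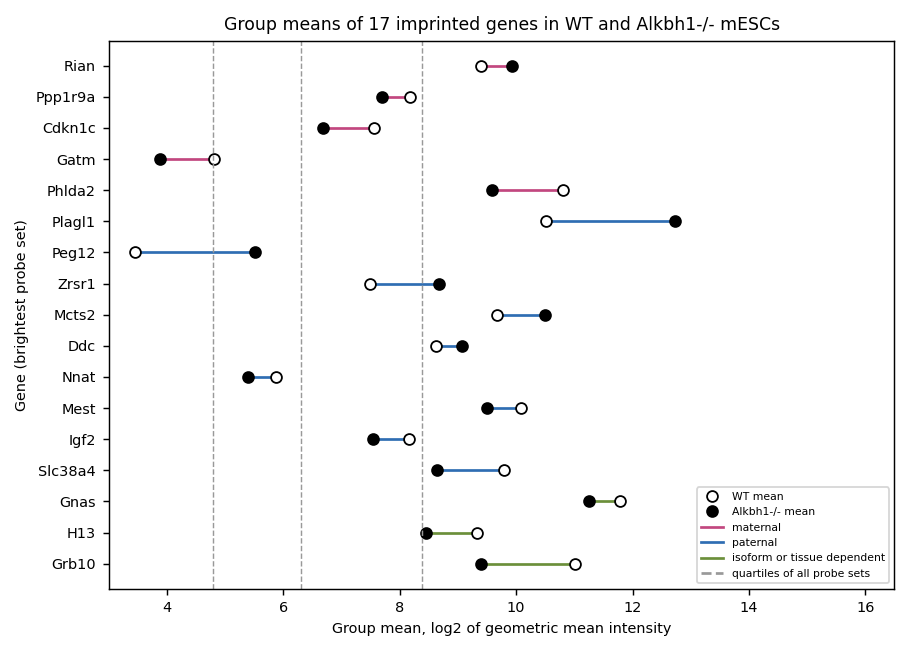
Mean of WT (open) and *Alkbh1-/-* (filled) arrays for 17 imprinted genes, as log2 of the geometric mean intensity. Line colours mark the allele labelled as expressed, and dashed lines the quartiles of all probe sets. No error is drawn, since no single array was analysed. The filled point lies to the right for 6 genes and to the left for 11.

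*Plagl1*, which encodes a zinc finger transcription factor that restrains growth and is expressed from the paternal allele, had the greatest difference of the 17 genes. Its mean was 10.51 in WT and 12.74 in *Alkbh1-/-* mESCs, a difference of 2.23, or 4.69-fold. The 2 dimmer probe sets with genotype means went the same way, from 4.73 to 7.04 and from 4.70 to 6.60. A further probe set, with a mean of 5.54, was not in the list.

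*Peg12*, a paternally expressed gene without introns whose product binds the kinase GSK3, was dim in WT cells, with a mean of 3.45 against a lower quartile of 4.80, and had a mean of 5.52 in *Alkbh1-/-* mESCs. The difference was 2.07, and it was 0.72 once means below the lower quartile were raised to it. Its neighbours in the *Snrpn* cluster, *Snrpn*, *Ndn*, *Magel2*, *Mkrn3* and *Ube3a*, had no genotype means.

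*Zrsr1* and *Mcts2* are paternally expressed copies of X-linked genes and lie inside other genes, *Zrsr1* in *Commd1* and *Mcts2* in *H13*. *Zrsr1*, related to the splicing factor U2AF, had means of 7.49 in WT and 8.68 in *Alkbh1-/-* mESCs, a difference of 1.19. *Mcts2*, related to a factor of translation, had means of 9.67 and 10.50, a difference of 0.83. The X-linked parent genes stood higher as well, *Zrsr2* by 1.14 and *Mcts1* by 0.71. The probe sets of the copies may read transcripts of the parents, and their part in the differences was not tested. Without these genes, 2 were higher past 1.5-fold. *Commd1*, the host of *Zrsr1*, had no genotype means.

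*Rian*, a noncoding RNA that hosts small nucleolar RNAs, had means of 9.39 and 9.93, a difference of 0.54. The list held 1 of its 4 probe sets and no probe set of *Meg3*, *Mirg* or *Dlk1*. *Ddc*, which makes dopamine and serotonin from their precursors, had means of 8.63 and 9.08, a difference of 0.45. Neither reached 1.5-fold.

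*Grb10* is an adaptor protein gene that restrains signalling by the insulin and IGF receptors, and lies beside *Ddc*. It was lower in *Alkbh1-/-* mESCs, with a mean of 11.01 in WT and 9.40 in *Alkbh1-/-*. The difference of -1.61 was the greatest among the 11 genes that were lower, and 1 dimmer probe set gave -1.04. The neighbours *Grb10* and *Ddc* thus differed in opposite directions.

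In the distal chromosome 7 clusters, only *Phlda2*, *Cdkn1c* and *Igf2* had genotype means, and they were lower. Of all named genes with genotype means at their brightest probe set, 52.6% were lower. *Phlda2*, a maternally expressed gene that limits placental growth, went from 10.81 in WT to 9.58 in *Alkbh1-/-*, a difference of -1.23. *Cdkn1c*, which encodes the cell cycle inhibitor p57, went from 7.57 to 6.68, a difference of -0.89. The other 7 measured genes of that control region, *Kcnq1*, *Kcnq1ot1*, *Slc22a18*, *Osbpl5*, *Ascl2*, *Cd81* and *Tssc4*, had no genotype means. *Igf2*, the paternally expressed growth factor of the adjoining cluster, went from 8.17 to 7.54, a difference of -0.63, and *H19*, its maternally expressed partner, had none.

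*Slc38a4*, a paternally expressed transporter of amino acids, had means of 9.79 and 8.64, a difference of -1.15. Its other probe set gave -1.31. *Gatm*, an enzyme of creatine synthesis, had a difference of -0.92 from means of 4.80 and 3.88, at the dim end of the array. With means raised to the lower quartile its difference was -0.0043. *H13*, which encodes the signal peptide peptidase, had means of 9.34 and 8.45, a difference of -0.88. A dimmer probe set of *H13* went from 4.61 to 5.16, the opposite way, and the mean of the 2 differences was -0.16. *H13* makes transcripts with different ends, and which of them each probe set reads was not examined.

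The remaining genes were lower by less than 1.5-fold. *Mest*, of the hydrolase fold family, went from 10.08 to 9.50, a difference of -0.58. *Gnas*, the gene of the stimulatory G protein subunit, went from 11.78 to 11.24, a difference of -0.54. Its probe set carried the symbol *Sang* and was named by gene ID, and which transcript of the locus it reads was not examined. *Nnat*, a small membrane protein gene, had a difference of -0.49 from 5.88 and 5.39, and *Ppp1r9a*, an actin-binding protein gene, had -0.47 from 8.17 and 7.70. A second probe set of *Ppp1r9a* gave -0.53. The dimmer probe set of *Sgce*, a sarcoglycan gene, went from 5.36 to 4.87.

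Grouped by the allele labelled as expressed, the 9 paternally expressed genes with genotype means were divided, 5 higher and 4 lower. Of the higher and the lower, 4 and 2 passed 1.5-fold. Of the 5 maternally expressed genes, *Rian* was higher and 4 were lower, of which 3 passed 1.5-fold. *Grb10*, *H13* and *Gnas*, whose allele depends on isoform or tissue, were all lower. Over all named genes with genotype means at their brightest probe set, 47.4% were higher and 52.6% lower. Past 1.5-fold, 32.9% of all matched probe sets were higher and 30.3% were lower. The groups overlapped, and 17 paternal, maternal and other genes picked through one list give no ground for a test of the allele.

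**Figure D3:**
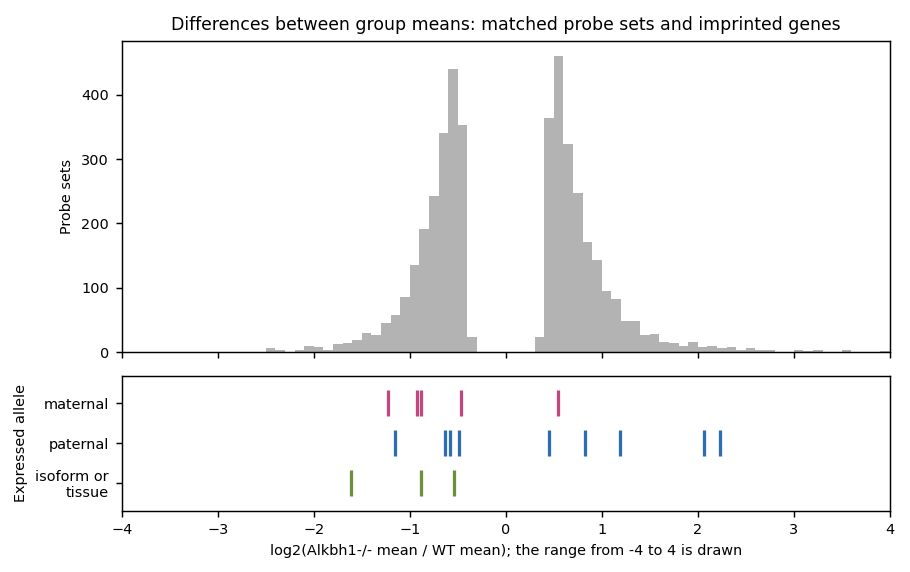
Upper panel, number of matched probe sets per bin of 0.1 in the log2 difference between genotype means; the gap around 0 is set by the list, which holds selected probe sets. Lower panel, the differences of 17 imprinted genes by the allele labelled as expressed, from -1.61 for *Grb10* to 2.23 for *Plagl1*.

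The 250 bases before the transcription start were read for *Plagl1* and *Peg12*, the imprinted genes with the greatest positive differences, and for *Grb10* and *Phlda2*, those with the greatest negative ones at the brightest probe set, since imprinted control works through methylation of CpG sites. Whether a window lies in an imprinted control region was not examined. The sequences are from RefSeq, assembly GRCm38.p6, 5′ to 3′ on the strand of the gene, with CpG sites in capitals. They lie at chr10:13090582-13090831 on the plus strand for *Plagl1* and, on the minus strand, at chr7:62464511-62464760 for *Peg12*, chr11:12037421-12037670 for *Grb10* and chr7:143502525-143502774 for *Phlda2*. The choice depends on the processing: *Peg12*, at 0.72 with the floor at the lower quartile, then stands below *Zrsr1* (1.19) and *Mcts2* (0.83), and with the mean of probe sets that have genotype means *Slc38a4* had -1.23, as had *Phlda2*. Where a gene had several starts, the window with the most CpG sites was taken.
Plagl1: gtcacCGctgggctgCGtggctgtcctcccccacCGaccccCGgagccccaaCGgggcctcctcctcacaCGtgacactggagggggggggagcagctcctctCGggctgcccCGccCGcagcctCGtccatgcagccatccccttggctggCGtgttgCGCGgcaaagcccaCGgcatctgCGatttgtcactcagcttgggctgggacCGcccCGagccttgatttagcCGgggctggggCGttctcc
Peg12: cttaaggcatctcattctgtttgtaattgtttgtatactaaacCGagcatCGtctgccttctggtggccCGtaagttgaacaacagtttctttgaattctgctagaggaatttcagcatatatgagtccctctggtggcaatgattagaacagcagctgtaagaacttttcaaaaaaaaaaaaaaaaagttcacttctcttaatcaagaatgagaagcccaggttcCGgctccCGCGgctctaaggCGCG
Grb10: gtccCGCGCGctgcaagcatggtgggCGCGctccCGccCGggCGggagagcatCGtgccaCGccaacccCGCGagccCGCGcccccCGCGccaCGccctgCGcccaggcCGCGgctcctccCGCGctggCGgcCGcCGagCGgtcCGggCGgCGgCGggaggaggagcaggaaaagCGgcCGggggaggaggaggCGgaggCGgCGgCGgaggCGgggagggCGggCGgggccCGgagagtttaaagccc
Phlda2: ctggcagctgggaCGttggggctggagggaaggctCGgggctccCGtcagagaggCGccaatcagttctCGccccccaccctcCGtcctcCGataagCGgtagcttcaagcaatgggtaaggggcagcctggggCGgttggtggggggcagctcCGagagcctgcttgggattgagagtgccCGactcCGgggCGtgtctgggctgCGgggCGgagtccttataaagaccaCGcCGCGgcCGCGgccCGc

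The windows differed in CpG sites, with 19 in *Plagl1*, 8 in *Peg12*, 40 in *Grb10* and 21 in *Phlda2*. The ratio of observed to expected CpG was 0.62, 0.73, 0.98 and 0.72 in the same order. Over the 42 listed genes in the promoter table the median was 14 sites, from 0 to 40, against 6 over all 27025 genes. The 42 genes had 68 windows and the 27025 genes 32851, which is more windows per listed gene. Taking the window with the most sites raises the count of genes with several windows, so the medians are not on equal terms. The hexamer TGCCGC, which the imprint-keeping protein ZFP57 binds when methylated, was searched on both strands, where it reads GCGGCA on the other. With 1 window a gene, chosen as above, it was found for 7 of the 42 genes (16.7%) and for 9.1% of all genes. Over all windows it was in 9 of 68 (13.2%) of the listed genes and in 8.7% of all 32851, and *Zdbf2* held it 3 times in its window with fewer CpG sites. In the *Plagl1* window it stands as GCGGCA at base 161, counted from the 5′ end, and it was not in the other 3 windows. The array data hold no methylation, and a match describes the letters of the window only.

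The genes that set, keep or erase imprints were read beside the imprinted genes, from a list of 20 of which 18 had a probe set. That list, too, was chosen with earlier results of these data known. All 18 reached the median of the array, against 61.9% of all named genes, and 4 had genotype means, against 14.7% of all named genes. *Dnmt3a* and *Dnmt3b*, which place new DNA methylation, were lower in *Alkbh1-/-* mESCs. *Dnmt3a* went from 9.97 to 8.26, a difference of -1.71, and *Dnmt3b* from 12.31 to 10.83, a difference of -1.48. *Dppa3*, which protects maternal imprints in the zygote, went from 10.88 to 9.39, a difference of -1.49. *Tet2*, which oxidises methylated cytosine, went from 9.50 to 10.44, a difference of 0.93. The genes that copy or recognise imprints, *Dnmt1* (mean 11.05), *Uhrf1* (12.14), *Zfp57* (8.03), *Zfp445* (10.52), *Trim28* (13.06), *Setdb1* (9.74) and *Ctcf* (10.87), had no genotype means, nor had *Dnmt3l*, *Kdm1b*, *Smchd1*, *Eed*, *Ehmt2*, *Hells* and *Tet1*.

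Over all named genes, 35.4% lay above the upper quartile by their brightest probe set, 61.9% reached the median and 14.7% had genotype means. Of the latter, 52.6% were lower in *Alkbh1-/-* mESCs. The counts of markers stand beside these shares, and the marker lists were chosen with earlier results of these data known. The means of all 10 markers of embryonic stem cells lay above the upper quartile. *Nanog* (difference 1.10), *Klf4* (0.67), *Esrrb* (0.55) and *Zfp42* (0.41) were higher in *Alkbh1-/-* mESCs and *Utf1* (-0.49) was lower, while *Pou5f1*, *Sox2*, *Dppa5a*, *Tdgf1* and *Fgf4* had no genotype means at their brightest probe set. The other 3 probe sets of *Fgf4* had them and were higher, by 0.46, 0.49 and 0.58, and that with 0.46 had a mean of 10.86, as had the brightest. Feeder cells were part of the cultures. Of 12 fibroblast markers, 10 reached the median of the array, and 6 had genotype means at some probe set, 5 of them at the brightest, all lower in *Alkbh1-/-* mESCs. *Col1a1* had a difference of -1.06, *Col5a2* of -0.99, *Fbn1* of -0.89, *Col3a1* of -0.88 and *Thy1* of -0.52. *Col1a2*, with a mean of 11.82 at its brightest probe set, had genotype means at a dimmer probe set alone, -1.06. *Dcn*, *Lum*, *Twist1*, *Pdgfrb*, *S100a4* and *Postn* had no genotype means. In bulk RNA, fewer fibroblasts and less of these transcripts per cell, in fibroblasts or in mESCs, cannot be told apart. Of the 17 imprinted genes with genotype means at the brightest probe set, 11 were lower, like those 6 markers, and 6 were higher. Genes sorted as lower share the direction of lower markers by that choice. The part of the feeder cells in the differences of imprinted genes was not tested. *Dcn*, an imprinted gene as well as a fibroblast marker, had a mean of 6.88. Of the trophoblast markers *Krt7* was lower (-0.73), and of the primitive endoderm markers *Sox7* was higher (0.88) and *Dab2* lower (-0.92). None of the 6 primitive endoderm markers reached the median of all probe sets, and 1 of 6 trophoblast markers did.

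The lines also differed in the sex chromosomes. All 4 Y-linked genes were lower in *Alkbh1-/-* mESCs. *Eif2s3y* went from 9.55 to 3.90, *Ddx3y* from 8.68 to 3.82, *Kdm5d* from 6.95 to 2.91 and *Uty* from 6.18 to 3.49. *Xist*, the RNA that silences an X chromosome, had a mean of 5.36 and no genotype means. Its antisense partner *Tsix* had none either. A probe set carrying only the symbol *Tsix* had a mean of 8.03 and the one named by gene ID 3.88, so the level of *Tsix* is uncertain. Sex chromosomes and *Alkbh1* genotype cannot be told apart here, for the imprinted genes as for the others.

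**Figure D4:**
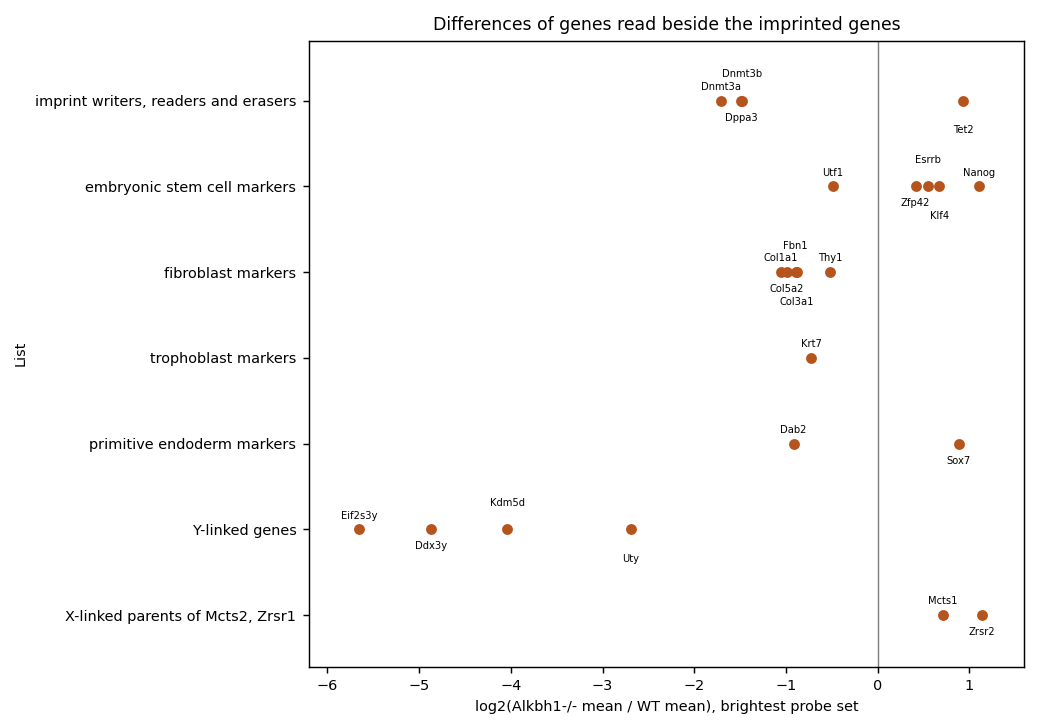
Log2 difference, *Alkbh1-/-* over WT, of genes with genotype means at their brightest probe set, by list, with the X-linked parents of *Mcts2* and *Zrsr1* in the bottom row. The 5 fibroblast markers and 4 Y-linked genes lie left of 0, and 4 of 5 stem cell markers right of it.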

How the data were processed

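Total RNA of 3 WT and 3 *Alkbh1-/-* mESC samples was measured on Affymetrix mouse arrays. The authors normalized the arrays together by robust multi-array average (RMA) and deposited a table of mean log2 values over all arrays for 33142 probe sets, chosen by a filter not given in the sources used here. A class comparison deposited by the authors gives the geometric mean intensity of each genotype for 4326 probe sets. Per its header, a filter left 7320 probe sets, of which those with a nominal p under 0.05 are listed. One class carries a name that the accompanying description corrects to that of the WT line. Both tables also hold the authors' own fold changes, test statistics and p-values, which were not used.

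In the class comparison, identifiers did not stand beside their own values: 8 entries matched by identifier. Entries were therefore joined to the probe sets whose identifiers it lists by the mean of the log2 genotype means, within 1e-06 of the mean over all arrays and nearest in both directions, which matched 4261 of 4326. The join was also run on simulated data, and the outcome of that run is not given here. Probe sets were named through RefSeq (GRCm38.p6) by gene ID, else accession, else the class comparison's annotation of the identifier, else symbol or an unambiguous synonym. This named 28168. Those that reached the annotation step with several symbols were left unnamed. The brightest probe set by mean represented a gene. One probe set with the symbol *Mkrn3* and an accession of *Sfn* was left out of *Mkrn3*. Promoter windows are 250 bases long, from the RefSeq table.

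No test was made and no error is given, since the tables hold no single arrays and the authors' statistics were not used. Precision is limited by how many arrays were run. Imprinted genes to be named with values were those with genotype means or above the upper quartile, with those below the lower quartile to be named; values are also given for *Mirg*, *Kcnq1ot1*, *Copg2*, *Blcap*, *Klf14*, *Dcn* and *Mkrn3*, which fall outside that rule and were chosen after their values were seen. The list of imprinted genes and the marker lists were chosen with earlier results of these data known. Alternatives were a linear fold of 2, a fold of 1.5 on the log2 scale, the mean of all probe sets of a gene (for differences, of those with genotype means), a floor at the lower quartile, joining by identifier and, chosen after seeing the data, leaving out *Mcts2* and *Zrsr1*. Python 3.11.15, NumPy 2.4.6, pandas 2.3.3 and matplotlib 3.10.9 were used.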

Additional observations from a re-analysis of the deposited data

How the results depend on the processing

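The 4 imprinted genes higher and the 7 lower past a linear fold of 1.5 became 2 and 1 with 1.5 taken on the log2 scale, and 3 and 3 at a linear fold of 2. Joined by the identifiers printed in the class comparison, which do not stand beside their own values, 4 were higher and 4 lower. Without *Mcts2* and *Zrsr1*, an alternative chosen after seeing the data, 2 were higher and 7 lower. The 34 genes with a mean at or above the median became 21 with the threshold at the upper quartile. With the mean of all probe sets of a gene, 29 reached the median. For the differences, the mean was taken over the probe sets with genotype means alone, which had been picked for a difference; that mean and the floor gave counts within 1.5 times the reported ones. No difference changed sign under the floor or that mean, among 17 genes; the floor changed *Peg12* and *Gatm* and that mean changed 5 genes. No paired analysis was possible because the tables hold no values of single arrays, and no array could be left out for the same reason. The number of arrays limits every value. The differences are limited as well by the selection of listed probe sets and by the single line name that the arrays of a genotype carry.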

Other observations

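One probe set carries the symbol *Mkrn3* in the deposited annotation, while its accession belongs to *Sfn*, which encodes the adaptor protein 14-3-3 sigma. Its mean was 9.15 in WT and 7.67 in *Alkbh1-/-* mESCs, a difference of -1.48. *Mkrn3* itself, read by another probe set, had a mean of 5.54 and no genotype means.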
